A study of Mus musculus with 8 samples.

Results

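The 45 genes described here encode proteins that condense chromosomes, drive entry into mitosis, build the spindle and kinetochores, run the spindle checkpoint and split the cell at cytokinesis. They were taken by symbol from a given list of spindle, kinetochore, checkpoint and cytokinesis genes, by a rule that uses no measured value. The list itself was drawn up by gene function, with earlier results of these data known. All 45 were present among the 15867 named genes of the deposited table. All 45 were also among the 15862 genes tested, those with a mean of at least 10 normalized counts over the 8 libraries. RNA came from adipose tissue macrophages selected for the surface protein F4/80 (gene Adgre1) from mice fed a high-fat diet for 20 weeks. The control group had the genotype Mirc11fl/fl Mirc22fl/fl Lyz2+/+ and the knockout group Mirc11fl/fl Mirc22fl/fl Lyz2Cre/Cre, with 4 biological replicates each. Both groups therefore carried loxP-flanked alleles of the clusters that encode miR-23, miR-27 and miR-24, and Cre was driven from the Lyz2 locus, which is active in myeloid cells. Loss of the clusters, presence of Cre and loss of both Lyz2 alleles coincide in the knockouts, and their effects cannot be told apart. The series title concerns macrophage proliferation in obese fat, which these genes report on. Ages were not analysed here. The labels do not say whether a replicate is 1 animal, so p-values cover the variation among the 8 samples only, which may be technical.

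Tissue macrophages can divide in place, and in obese fat such local division is known to add to the macrophage pool. Most mitosis transcripts are made only in late S, G2 and M phase: in quiescent cells the DREAM complex holds their promoters silent through CHR elements, and in G2 the B-MYB and FOXM1 factors activate the same promoters. In a bulk sample their level therefore follows the share of cells in cycle, and fewer cycling cells and less RNA per cycling cell cannot be told apart.

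Library totals ran from 31789395 to 46621080 recovered reads. Lyz2 stood at 156727 to 204853 normalized counts in the controls and at 174 to 273 in the knockouts, in the direction the genotypes give. Adgre1 was between 37440 and 54126 normalized counts in all 8 libraries, so the macrophage label held in each. The 11 macrophage markers other than Lyz2 summed to 352392 to 515301 in the controls and 316098 to 339036 in the knockouts. These ranges did not overlap. Transcripts of other cells were also present: 10 of 10 fibroblast markers and 10 of 10 endothelial markers were measured in every library. Dendritic cell markers summed to 1027 to 1691 in the controls and 2071 to 2292 in the knockouts, without overlap. Every list of non-macrophage markers had a median log2 difference (knockout minus control) above 0, from 0.35 for adipocytes to 1.01 for erythroid cells. The part of this shift in the results was not tested. Sums of some lists are given by library below. Control replicate 1 stood apart from the other controls for the genes described here, and the values of the 45 genes without it follow their description by role.

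No difference between knockout and control macrophage preparations, which held RNA of other cells too, was detected for any of the 45 mitosis and cytokinesis genes. By limma on log2(normalized count + 1), 0 of 45 passed an adjusted p of 0.05, against 3.61% of all genes tested. At an unadjusted p under 0.05 the count was still 0 of 45, against 21.2% of all genes, and no member had groups that failed to overlap, against 13.7%. The count models on recovered reads also called 0 of 45, where edgeR called 3.51% and DESeq2 9.82% of all genes. In the authors' deposited table, likewise, 0 of 45 had an adjusted p under 0.05, and the smallest was 0.317, for Anln. The log2 differences (knockout minus control) ran from -0.23 for Prc1 to 0.17 for Cenpa, with a median of -0.04, and the median over all genes tested was 0.00. Of the 45 values, 30 lay below 0 and 15 above, a split that was 21 below and 24 above when each library was scaled to the same total, 37 and 8 with quantile normalization, and 16 and 29 with array weights. When a library was left out it ran from 13 below and 32 above (without control replicate 1) to 39 below and 6 above (without knockout replicate 3).

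Intervals give the size of difference that these 8 libraries still allow. All 45 of the 95% intervals included 0. Of these, 44 lay wholly within 1.5-fold of no difference in either direction, and all 45 within 2-fold. Prc1, the microtubule bundler of the central spindle, had the single interval that reached beyond 1.5-fold, on the lower side (log2 -0.60 to 0.14). Leaving out a library in turn left between 36 and 43 intervals within 1.5-fold.

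**Figure D1:**
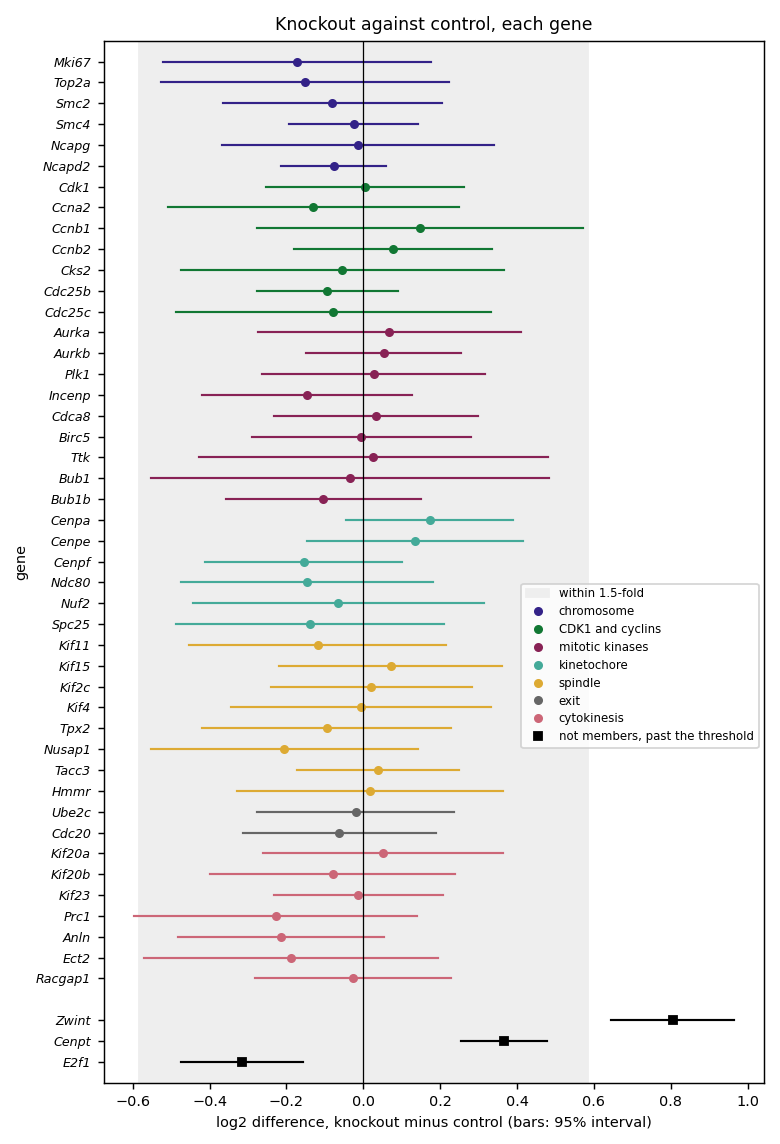
Log2 difference (knockout minus control) of each of the 45 mitosis and cytokinesis genes on the x axis, by gene on the y axis and coloured by role. Points are limma estimates from 4 and 4 libraries, bars are 95% intervals, and grey marks 1.5-fold. All 45 coloured bars cross 0, whereas the bars of Zwint and Cenpt lie above 0 and that of E2f1 below it.

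The 6 chromosome genes had log2 differences from -0.17 to -0.01, and none passed the test. This group holds Mki67, whose protein coats mitotic chromosomes and is the common marker of proliferating cells, Top2a, which untangles sister DNA, and the condensin subunits Smc2, Smc4, Ncapg and Ncapd2. For Mki67, the 4 controls read 5556, 3540.2, 3943 and 3366 normalized counts and the 4 knockouts 3224, 3485, 4208 and 3419, in replicate order. Control replicate 1 was the highest library and knockout replicate 1 the lowest, and the other 3 knockouts lay inside the control range (log2 difference -0.17, SE 0.15, adjusted p = 0.565). The normalized counts of Ncapd2 were 1712, 1671, 1731 and 1620.2 for controls 1 to 4 and 1559.9, 1502, 1765 and 1567 for knockouts 1 to 4. The spread over the libraries was small, with the highest library 1.18 times the lowest, and the groups overlapped (log2 difference -0.08, SE 0.06, adjusted p = 0.508). Top2a ran from 2002 to 3258 in the controls and from 1780 to 2590 in the knockouts, in the order of libraries seen for Mki67 at both ends: highest in control replicate 1 and lowest in knockout replicate 1. Smc4, at 494 normalized counts per kb of transcript, was the most abundant of the condensin subunits per length, and its interval was narrow (log2 -0.19 to 0.14).

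The 7 genes of CDK1 and its direct regulators had log2 differences from -0.13 to 0.15. CDK1 pairs with cyclin A2 (Ccna2) and the B-type cyclins (Ccnb1, Ccnb2) to drive mitotic entry, Cks2 is a small partner of the kinase, and the phosphatases Cdc25b and Cdc25c remove its inhibitory phosphates. Cdk1 itself ran from 509 to 688 in the controls and from 504 to 646 in the knockouts, with group means of 568 ± 80.9 in the controls and 568 ± 59.4 in the knockouts (SD, n = 4 each). Ccnb1 stood at 643, 466, 504 and 388 normalized counts in the 4 controls, taken in replicate order, and at 435, 522, 739.7 and 524 in the 4 knockouts. Knockout replicate 3 was the highest and control replicate 4 the lowest, and the other 3 knockouts lay inside the control range (log2 difference 0.15, SE 0.19, adjusted p = 0.704). For Cdc25b, the 4 controls read 1019.9, 1168, 1256 and 1064 normalized counts and the 4 knockouts 976, 1026, 1143 and 1072, in replicate order. Here control replicate 3 was highest and control replicate 1, the top library for most members, was the lowest control (log2 difference -0.09, SE 0.08, adjusted p = 0.55). Cdc25c had the lowest level per length of all 45 genes, 32.2 normalized counts per kb, and ran from 51.1 to 74.5 in the controls and from 47.3 to 69.8 in the knockouts.

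The 9 mitotic kinases and checkpoint genes had log2 differences from -0.15 to 0.07. Aurora A (Aurka) acts at spindle poles. Aurora B (Aurkb), its scaffold Incenp, borealin (Cdca8) and survivin (Birc5) form the chromosomal passenger complex, Plk1 acts from entry to cytokinesis, and Ttk, Bub1 and Bub1b run the spindle checkpoint. The normalized counts of Incenp were 2931, 2739, 2845 and 2735 for controls 1 to 4 and 2806, 1912, 2904 and 2669.7 for knockouts 1 to 4. Knockout replicate 2 stood below the other 7 libraries, which lay within 2669.7 to 2930.5 (log2 difference -0.15, SE 0.12, adjusted p = 0.531). Bub1b stood at 1040.4, 999, 1008 and 935 normalized counts in the 4 controls, taken in replicate order, and at 875, 835, 1189 and 845 in the 4 knockouts. Knockout replicate 3 was above all controls and the other 3 knockouts were below all of them (log2 difference -0.10, SE 0.11, adjusted p = 0.642). Of the passenger complex, Aurkb and Cdca8 had log2 differences of 0.05 and 0.03, Birc5 of -0.01 and Incenp of -0.15. Bub1 showed the widest spread of the 45 genes, 2.00 times between control replicate 1 (388) and knockout replicate 1 (194). Plk1 averaged 400.1 ± 57.7 in the controls and 406 ± 47.7 in the knockouts (SD, n = 4 each).

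At the kinetochore, which ties chromosomes to spindle microtubules, the 6 members had log2 differences from -0.16 to 0.17. Cenpa encodes the histone H3 variant that marks centromeres, Cenpe a kinesin that moves chromosomes to the plate, and Cenpf a large outer protein. Ndc80, Nuf2 and Spc25 belong to the NDC80 complex, which grips the microtubule. For Cenpa, the 4 controls read 1380.1, 1498, 1406 and 1129 normalized counts and the 4 knockouts 1392, 1460.5, 1681 and 1552, in replicate order. Knockout values sat towards the top of the range, but 2 of the 4, in replicates 1 and 2, lay inside the control range (log2 difference 0.17, SE 0.10, adjusted p = 0.339). Per length, Cenpa was the most abundant of the 45 genes, at 980 normalized counts per kb. The normalized counts of Cenpf were 738, 584, 619 and 547 for controls 1 to 4 and 504, 513, 644 and 569.6 for knockouts 1 to 4. Control replicate 1 was highest and knockout replicates 1 and 2 were below all controls (log2 difference -0.16, SE 0.11, adjusted p = 0.476). The log2 differences of Ndc80, Nuf2 and Spc25 were -0.15, -0.06 and -0.14, and that of Cenpe was 0.14.

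The 8 spindle genes had log2 differences from -0.21 to 0.07. Kif11 and Kif15 are the kinesins that push spindle poles apart, Kif2c dismantles microtubule ends, Kif4 is a chromosome-bound kinesin, and Tpx2, Nusap1, Tacc3 and Hmmr nucleate, bundle or anchor spindle microtubules. Kif11 stood at 908, 648, 634 and 616 normalized counts in the 4 controls, taken in replicate order, and at 536, 644, 772 and 620.1 in the 4 knockouts. Control replicate 1 lay well above the other controls (log2 difference -0.12, SE 0.15, adjusted p = 0.693). For Tpx2, the 4 controls read 1292, 1019, 947 and 816 normalized counts and the 4 knockouts 782, 953, 1049 and 998, in replicate order. The same library was highest and knockout replicate 1 lowest, with overlap between the groups (log2 difference -0.10, SE 0.14, adjusted p = 0.753). The normalized counts of Nusap1 were 507, 361, 398 and 325 for controls 1 to 4 and 288, 368, 398 and 317 for knockouts 1 to 4. Knockout replicates 1 and 4 were below all controls and replicates 2 and 3 within them (log2 difference -0.21, SE 0.15, adjusted p = 0.486). The other 5 spindle genes had log2 differences from -0.01 (Kif4) to 0.07 (Kif15).

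Exit from mitosis was represented by Ube2c and Cdc20, the ubiquitin-conjugating enzyme and the activator of the anaphase-promoting complex. Ube2c stood at 503, 401, 434 and 375 normalized counts in the 4 controls, taken in replicate order, and at 392, 399, 492 and 405 in the 4 knockouts. The knockout range lay inside the control range (log2 difference -0.02, SE 0.11, adjusted p = 0.942). For Cdc20, the 4 controls read 512, 481, 508 and 431 normalized counts and the 4 knockouts 469, 381, 537 and 472, in replicate order. Knockout replicate 2 was the lowest library and knockout replicate 3 the highest (log2 difference -0.06, SE 0.11, adjusted p = 0.795). Exons of 15 of the 45 genes share bases with another annotated gene, mostly on the opposite strand, and no label or header states whether counting used strand. The shared part exceeded 20% of the exonic bases for Ube2c (22.8%, with Tnnc2) and Kif20a (29.3%, with Cdc23). If counting did not use strand, reads from those bases may come from either gene.

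The 7 cytokinesis genes had log2 differences from -0.23 to 0.05, the highest being that of the kinesin gene Kif20a. Prc1 bundles the central spindle, Kif23 and Racgap1 form centralspindlin, Ect2 activates RhoA at the cleavage furrow, anillin (Anln) scaffolds the contractile ring, and Kif20a and Kif20b act at the midzone. The normalized counts of Prc1 were 1126, 816, 909 and 781 for controls 1 to 4 and 615, 693, 997 and 813 for knockouts 1 to 4. Knockout replicates 1 and 2 lay below all controls and replicates 3 and 4 within them, and the difference was the lowest of all 45 with every library in (log2 difference -0.23, SE 0.16, adjusted p = 0.465). Anln stood at 959, 713, 762 and 673 normalized counts in the 4 controls, taken in replicate order, and at 580.0, 668, 731 and 682 in the 4 knockouts. Knockout replicates 1 and 2 were again the only ones below the control range (log2 difference -0.21, SE 0.12, adjusted p = 0.339). For Racgap1, the 4 controls read 1285, 1062, 1026 and 958 normalized counts and the 4 knockouts 922, 1054, 1241 and 1032, in replicate order. Knockout replicate 1 lay below all controls and the other 3 knockouts within them (log2 difference -0.03, SE 0.11, adjusted p = 0.92).

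Without control replicate 1, the log2 differences of the 45 genes ran from -0.14 for Cdc25b to 0.28 for Ccnb1, 0 of 45 passed the test and 0 had an unadjusted p under 0.05. Prc1 then stood at -0.12, Cenpa at 0.19, Mki67 at -0.02, Kif11 at 0.01 and Tpx2 at 0.03. The number below 0 was 2 of 6 chromosome genes without that library against 6 with it, 3 of 7 cytokinesis genes against 6, and 1 of 8 spindle genes against 4. It was 2 against 4 for the kinetochore, the kinases and checkpoint, and CDK1 with its regulators. With all libraries scaled to the same total it was 4 of 6 for chromosomes, 4 of 7 for cytokinesis, 3 of 8 for the spindle, 4 of 6 for the kinetochore, 2 of 9 for kinases and checkpoint and 3 of 7 for CDK1 with its regulators, and with quantile normalization 6, 6, 6, 4, 8 and 5 in the same order. Without knockout replicate 3 all 8 spindle genes were below 0. The sign of these differences thus moved with the library left out and with the scaling.

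Most of the 45 genes shared the order of the libraries. Control replicate 1 was the highest control for 42 of 45, and knockout replicate 3 the highest knockout for 41, and both held for 38. At the other end, control replicate 4 was the lowest control for 37 and knockout replicate 1 the lowest knockout for 36. After centring each gene on its own mean, the median over the 45 genes on the log2 scale was 0.33, -0.04, -0.03 and -0.17 for controls 1 to 4. For knockouts 1 to 4 it was -0.19, -0.04, 0.19 and -0.02. The same medians over all genes tested were 0.00 in every library. Scaling by 1 factor per library can fix that value in advance, so it is no contrast to the 45 genes. Summed normalized counts of the 45 genes were 42930, 33814, 34918 and 31346 in the controls and 30800.4, 32372, 38854 and 34039 in the knockouts, so that control replicate 1 was high, knockout replicate 3 next, and the other 6 libraries closer together. As a share of all normalized counts, these sums were between 0.0803% and 0.112% in the controls and between 0.0845% and 0.106% in the knockouts.

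**Figure D2:**
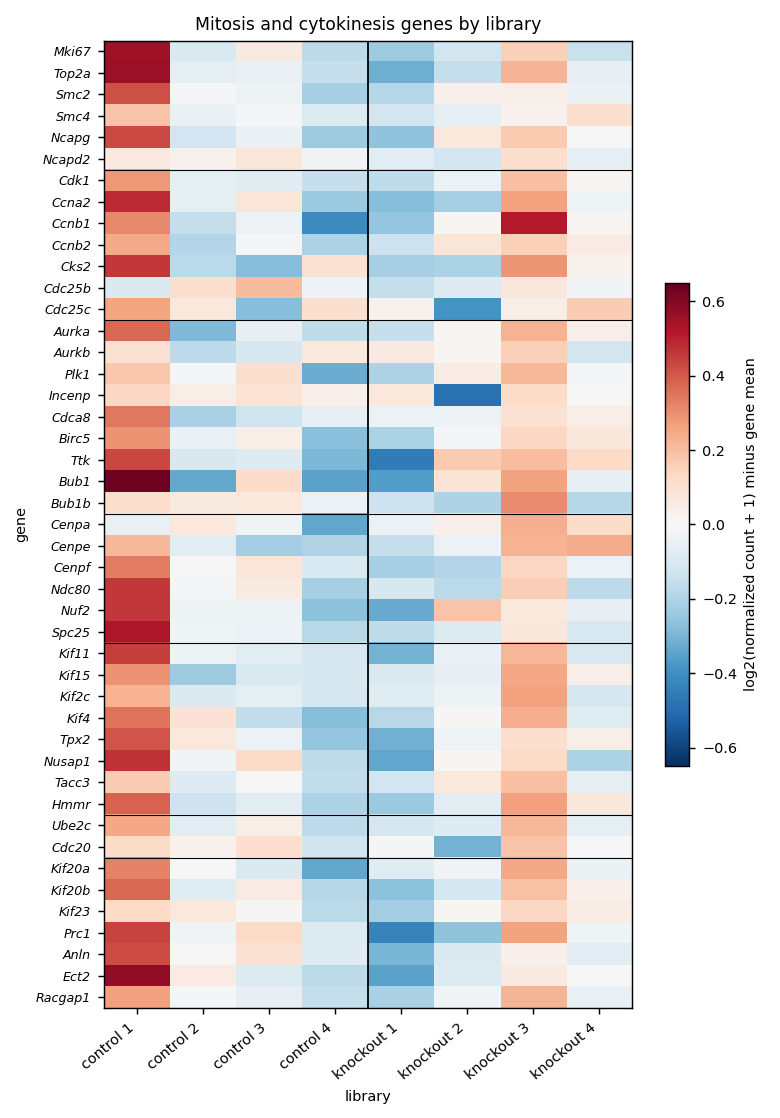
Heat map of the 45 genes (y axis, black lines separate the roles) in the 8 libraries (x axis), coloured by log2(normalized count + 1) minus the gene's mean. The columns of control replicate 1 and knockout replicate 3 are mostly red, with library medians of 0.33 and 0.19, and those of control replicate 4 and knockout replicate 1 mostly blue.

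The median SD of the log2 values over the 45 genes was 0.24 in the controls, against 0.15 over all genes, and 0.17 in the knockouts, against 0.14. Over the 3 controls other than replicate 1 it was 0.11 both for the 45 genes and for all genes. The highest library exceeded the lowest by 1.18 to 2.00 times, with a median of 1.55 over the 45 genes.

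Each gene was also set beside the mean of the other 44 over the 8 libraries, as a description, since the genes share libraries and their depth. Pearson's r had a median of 0.88, exceeded 0.9 for 17 genes and stayed under 0.5 for 5. With each group centred on its own mean the median was 0.92, and over the 7 libraries without control replicate 1 it was 0.79. Kif20b, Cdk1 and Top2a were closest to the shared pattern over 8 libraries, each at an r of 0.98. The 5 genes under 0.5 were Cdc25b (0.09), Incenp (0.29), Cdc25c (0.32), Aurkb (0.35) and Cenpa (0.39). Without control replicate 1, Cenpa stood at 0.76 and Cdc25b at 0.53, and the other 3 at -0.06 to 0.13. Cdc25c is the least abundant of the 45 genes, with 47.3 to 74.5 normalized counts, where counting error is large.

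Genes of the same phases that are not among the 45 followed the same libraries. For 82 other mitosis genes the library medians were 0.31, -0.02, 0.00 and -0.13 in the controls and -0.19, -0.02, 0.15 and -0.06 in the knockouts. For 43 S phase genes (DNA replication and its licensing) they were 0.29, 0.00, -0.03 and -0.10 in the controls and -0.15, -0.02, 0.11 and -0.11 in the knockouts. The summed level of the 45 genes was 0.699 to 0.765 times that of the S phase genes in the controls and 0.717 to 0.785 times in the knockouts, with overlap. Fibroblast markers, as a sum, stood at 168489, 120138, 128762 and 101085 in the controls and at 138263, 150263, 210373 and 186599 in the knockouts, so control replicate 1 and knockout replicate 3 were the highest of their groups there as well. Endothelial markers were lowest in control replicate 1 (74779, against 87937 to 128931 in the other controls) and highest in knockout replicate 1 (172085). B cell markers were highest in knockout replicate 1 too, at 28362 against 10463 to 12362 in the other knockouts. Macrophage markers other than Lyz2 were highest in control replicate 4, at 515301 against 352392 to 418535 in the other controls. That library was the lowest control for 37 of the 45 genes. The part of macrophages and of these other cells in the library pattern was not tested.

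**Figure D3:**
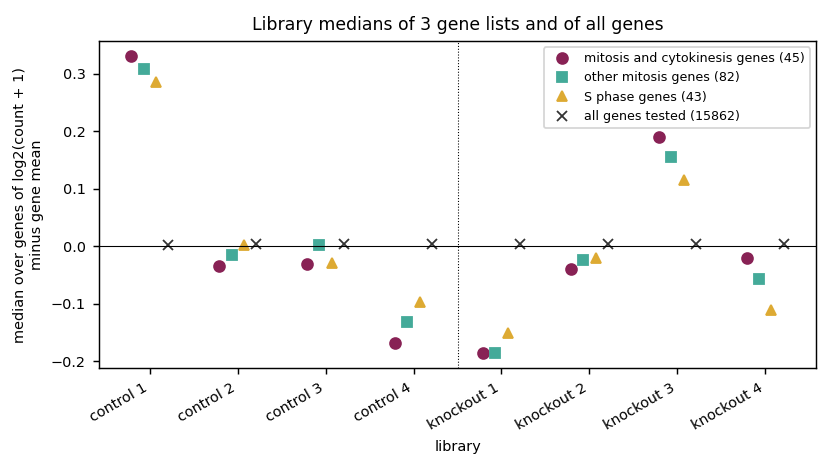
Median over the genes of each list of log2(normalized count + 1) minus the gene's mean (y axis) in the 8 libraries (x axis), for the 45 genes, 82 other mitosis genes, 43 S phase genes and all 15862 genes tested. The mitosis and S phase lists stand high together in control replicate 1 and knockout replicate 3. All genes stand at 0.00, a value that the scaling of the libraries can fix in advance.

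Of the 82 other mitosis genes measured, 2 rose in the knockouts and 0 fell, a share of 2.44% against 3.61% of all genes tested, and both genes that rose belong to the kinetochore. At an unadjusted p under 0.05 the count was 7 of 82, or 8.54%, against 21.2%. edgeR called 2 and DESeq2 3 of the 82, against 3.51% and 9.82% of all genes. The median log2 difference of the list was -0.07. The normalized counts of Zwint were 2272, 2103, 1986 and 2048 for controls 1 to 4 and 3261, 3679, 3929 and 3849 for knockouts 1 to 4. The groups did not overlap. Zwint (chr10:72654845-72674964, plus strand, GRCm38) encodes a kinetochore protein that links the KNL1 scaffold to the RZZ complex of the checkpoint, and it rose 1.75-fold (log2 difference 0.81, SE 0.07, adjusted p = 0.00147). Cenpt stood at 719, 701, 726 and 714 normalized counts in the 4 controls, taken in replicate order, and at 921, 915, 944 and 908 in the 4 knockouts. Cenpt (chr8:105844673-105853278, minus strand) encodes the inner kinetochore protein that anchors NDC80 complexes, and it rose 1.29-fold with groups that did not overlap (log2 difference 0.37, SE 0.05, adjusted p = 0.00803). Both calls held when any 1 library was left out, with log2 differences of 0.77 to 0.86 for Zwint and 0.36 to 0.37 for Cenpt. Over the 8 libraries, r with the mean of the 45 genes was 0.04 for Zwint and -0.09 for Cenpt, and with each group centred on its own mean it was 0.81 and 0.46. Within the groups Zwint was highest in control replicate 1 and knockout replicate 3, as most of the 45 were.

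The proteins that Zwint and Cenpt bind were looked up after these values were seen. Knl1 had a log2 difference of -0.07, the RZZ genes Zwilch, Zw10 and Kntc1 of 0.05, -0.02 and -0.09, and Cenpw, the histone-fold partner of Cenpt, of -0.02. The smallest adjusted p of these 5 was 0.803. As a ratio to the summed counts of the 45 genes, Zwint stood at 5.29% to 6.54% in the controls and 10.1% to 11.4% in the knockouts.

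**Figure D4:**
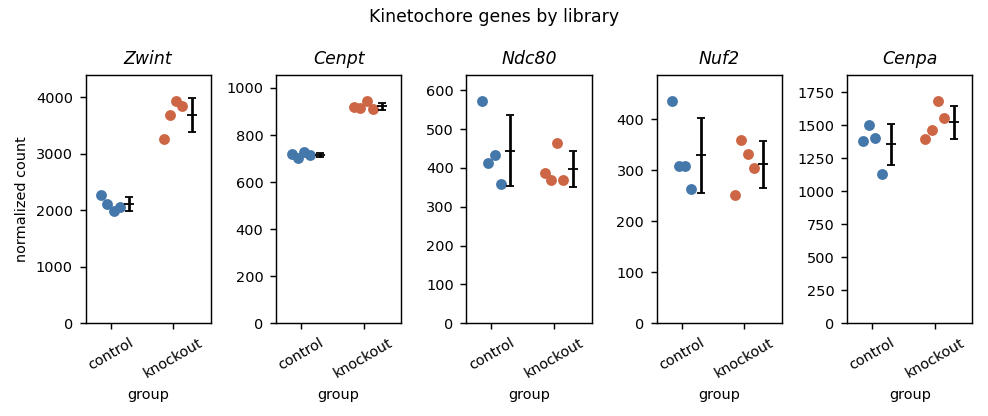
Normalized counts (y axis, from 0) of Zwint, Cenpt and the members Ndc80, Nuf2 and Cenpa in the 4 control (blue) and 4 knockout (orange) libraries, with the mean ± SD in black beside each group. The groups are apart for Zwint (1986 to 2272 against 3261 to 3929) and Cenpt (701 to 726 against 908 to 944) and overlap for the other 3.

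Among the other mitosis genes, Ncaph2, a condensin II subunit and the most abundant of that list, ran from 3866 to 4134 in the controls and 3921 to 4201 in the knockouts (log2 difference 0.04, SE 0.05, adjusted p = 0.682). Arhgap11a, a RhoA regulator of cytokinesis chosen after its value was seen, stood at 1956 to 2136 in the controls and 1189 to 1686 in the knockouts without overlap, and its adjusted p was 0.0626 (log2 -0.44). It passed the threshold in DESeq2 and in limma with array weights.

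Of the 43 S phase genes, 1 fell and 0 rose, a share of 2.33% against 3.61% of all genes tested. At an unadjusted p under 0.05 the count was 3 of 43, or 6.98%, against 21.2%. For E2f1, the 4 controls read 1852, 1528, 1658 and 1656 normalized counts and the 4 knockouts 1278, 1298, 1448 and 1346, in replicate order. E2f1, a transcription factor that turns on replication genes, fell by 0.32 on the log2 scale without overlap (SE 0.07, adjusted p = 0.0447). That call was lost in 7 of the 8 fits without a library. Among other settings, it was also lost when libraries were scaled to the same total or the variance trend was left out. In the authors' deposited DESeq2 comparison the adjusted p of E2f1 was 0.00273, where 1556 genes had one under 0.05. Mcm3, a subunit of the replicative helicase, had a log2 difference of -0.22 (adjusted p = 0.187), and Pcna, the sliding clamp and the most abundant of the list, of -0.16 (adjusted p = 0.352). Of 14 genes that hold cells in quiescence (DREAM and retinoblastoma family members and CDK inhibitors), 0 passed in limma. With an unadjusted p under 0.05 there were 3, or 21.4%, against 21.2% of all genes tested. edgeR called 0 and DESeq2 1, Cdkn1a, against 3.51% and 9.82% of all genes. Rbl1, encoding p107, and Cdkn1a, encoding p21, stood at log2 -0.24 and -0.33 (adjusted p of 0.124 and 0.131).

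The promoters of these genes were read from RefSeq on GRCm38.p6 as 250 bases before to 50 after each gene's start. Of the 45 genes, 38 were in that table with 40 promoters. A CHR word (TTTGAA or TTTAAA, either strand) was found in 34 of 40 promoters, or 85%, against 27.6% of all 32851 promoters and 20.7% of those of the genes tested. A CCAAT box (CCAAT, either strand) was in 77.5%, against 37.4% of all promoters, and both words together were in 70%, against 10.7%. For the other mitosis genes the CHR share was 56% and for S phase genes 22.5%. E2F words were searched on either strand as TTCCCGC, the variant TTGGCGC, the variant TTCGCGC and the variant TTGCCGC. One of them was in 25% of the members' promoters and in 60% of those of S phase genes. The share was 9.57% of all promoters and 15.2% of those of the genes tested. Of the 51 CHR matches, 36 lay downstream of the start or at most 50 bases before it, and 1 overlapped a CCAAT box. Matches are counted per promoter, so words in the overlapping promoters of Ect2 and of Prc1 count in each. A match is a run of letters and does not show that a factor binds there.

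The windows of 6 promoters are shown from 120 bases before to 50 after the start, 5′ to 3′ on the gene's strand, with CHR words and CCAAT boxes of either strand in capitals. Ccnb1 and Plk1 show the common arrangement of a CHR word downstream of or beside a CCAAT box, Cenpa carries CHR words although it followed the library order less closely, Cdc25b and Bub1 are among the 6 promoters with neither CHR word searched, and Zwint rose. The positions are chr13:100786437-100786606 (minus strand), chr7:122159315-122159484 (plus strand), chr5:30666766-30666935 (plus strand), chr2:131186828-131186997 (plus strand), chr2:127831810-127831979 (minus strand) and chr10:72654726-72654895 (plus strand), in that order.
Ccnb1: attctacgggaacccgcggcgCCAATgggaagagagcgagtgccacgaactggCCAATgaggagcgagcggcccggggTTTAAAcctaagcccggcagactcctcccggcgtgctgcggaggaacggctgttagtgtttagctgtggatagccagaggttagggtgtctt
Plk1: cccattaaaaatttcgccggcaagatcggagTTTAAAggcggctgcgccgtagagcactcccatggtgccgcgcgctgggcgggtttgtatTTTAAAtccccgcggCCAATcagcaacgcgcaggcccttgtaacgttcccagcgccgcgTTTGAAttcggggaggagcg
Cenpa: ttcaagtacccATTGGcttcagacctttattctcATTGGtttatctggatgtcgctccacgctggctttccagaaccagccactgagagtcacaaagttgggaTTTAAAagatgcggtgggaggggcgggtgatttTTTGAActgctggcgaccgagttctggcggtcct
Cdc25b: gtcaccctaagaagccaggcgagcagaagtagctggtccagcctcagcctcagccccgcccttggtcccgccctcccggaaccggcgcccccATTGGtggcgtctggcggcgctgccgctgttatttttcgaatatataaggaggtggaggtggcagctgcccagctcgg
Bub1: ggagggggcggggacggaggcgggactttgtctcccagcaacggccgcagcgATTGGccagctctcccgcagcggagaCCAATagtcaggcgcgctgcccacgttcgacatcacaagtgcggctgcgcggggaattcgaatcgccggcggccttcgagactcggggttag
Zwint: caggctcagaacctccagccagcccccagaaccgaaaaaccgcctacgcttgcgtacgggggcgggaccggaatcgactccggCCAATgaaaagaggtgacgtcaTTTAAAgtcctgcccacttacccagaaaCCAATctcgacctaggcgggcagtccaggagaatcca

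The genes printed cover a range of library patterns. Bub1, with CCAAT boxes but neither CHR word searched, followed the other members at an r of 0.91. Cdc25b, with a CCAAT box and also neither CHR word searched, stood at 0.09. Cenpa, with CHR words in the window printed, stood at 0.39. Whether promoter words bear on the library pattern was not tested. Zwint has a CHR word and CCAAT boxes as most members do, and was the gene with the largest log2 difference among these 45 and the other 82 mitosis genes.

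The deleted clusters encode microRNAs that act by pairing bases 2 to 8, the seed, with sites in 3′ untranslated regions. The mature sequences from RefSeq, with the seed in capitals, are shown because sites in the members were searched with them. miR-23a-3p (chr8:84208563-84208583), miR-27a-3p (chr8:84208727-84208747) and 1 copy of miR-24-3p (chr8:84208875-84208896) lie in Mirc11, and miR-27b-3p (chr13:63300760-63300780) and the other copy of miR-24-3p (chr13:63301251-63301272) in Mirc22, all on the plus strand of GRCm38.p6. miR-27a-3p and miR-27b-3p share a seed. No entry for miR-23b-3p was in the reference used, so Mirc22 may hold more microRNAs than are shown here.
miR-23a-3p: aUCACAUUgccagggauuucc
miR-27a-3p: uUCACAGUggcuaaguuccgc
miR-27b-3p: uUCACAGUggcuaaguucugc
miR-24-3p: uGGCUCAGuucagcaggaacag

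An 8-base site, the seed match followed by A, was rare among the mitosis and cytokinesis genes. It was found in the longest annotated 3′ untranslated region of 2 of 45 genes, or 4.44%, against 19.5% of 14776 genes tested that have such a region. The members' regions were also shorter, with a median of 584 bases against 1170, so the shares are not of equal lengths. Other mitosis genes had a site in 8.54% and S phase genes in 6.98%. The 2 members were Cdc25b, with a miR-27 site at chr2:131198044-131198067 (plus strand), and Birc5, with a miR-24 site at chr11:117854561-117854584 (plus strand). They are shown with 8 bases on either side and the site in capitals.
Cdc25b: tcctcactACTGTGAAccccagag
Birc5: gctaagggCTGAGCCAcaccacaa

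Neither gene with a site passed the test: Cdc25b had a log2 difference of -0.09 and Birc5 of -0.01, and both had intervals that include 0. Among the other genes named as standing apart between the groups, Arhgap11a, which stood lower in the knockouts (log2 -0.44), has a miR-23 site at chr2:113833889-113833912 (minus strand). No 8-base site was found in Zwint, Cenpt or E2f1. The 7-base seed match without the A was found in Zwint, 1 for miR-27 and 2 for miR-24, and not in Cenpt or E2f1. Some members without an 8-base site, such as Cdk1 (1 for miR-27 and 3 for miR-24), also hold 7-base matches. Shares of genes with 7-base matches were not computed.

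**Figure D5:**
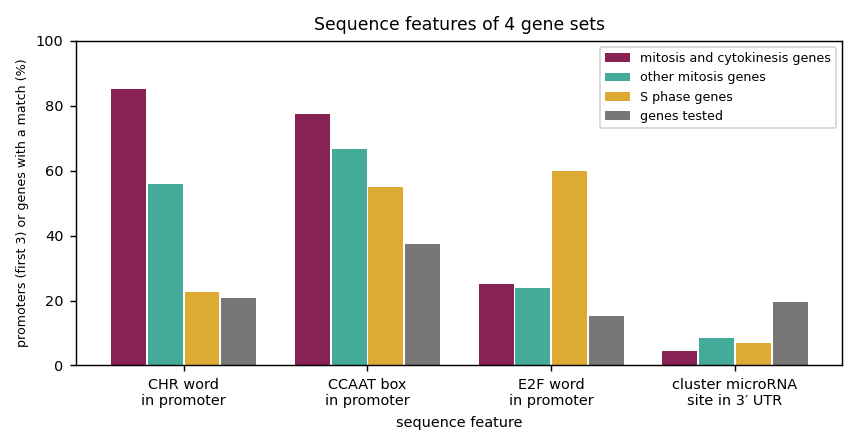
Percent (y axis) of promoters with a CHR word, a CCAAT box or an E2F word and of genes with an 8-base site of a deleted microRNA (x axis), in 4 gene sets. The mitosis and cytokinesis genes are highest for CHR words (85%) and CCAAT boxes (77.5%) and lowest for microRNA sites (4.44%).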

How the data were processed

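Poly(A)-selected RNA of F4/80-positive adipose tissue macrophages was sequenced, per the labels' protocols. Groups came from the genotype label and replicate numbers from the titles. The authors deposited normalized counts per gene and library, a non-negative signal. Build mm10 and the tools cutadapt, FastQC, Salmon and DESeq2 are named, without versions or order, in the submitters' processing notes. Values are whole reads divided by 1 factor per library: 100% came out whole within 0.01 reads, although the step of control replicate 4 is close to 1, where low values cannot be told from rounding. The smallest value in each library is 1 read. The authors also deposited a DESeq2 table of control over knockout, with log2 fold changes, score columns and p-values, per the file headers; signs were turned here. Of its lines, 1558 have no adjusted p.

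Because the deposited values are normalized, the main test was limma (3.58.1, R 4.3.3) on log2(value + 1), eBayes with trend, two-sided, on genes with a mean of at least 10, with Benjamini-Hochberg adjustment over 15862 genes and a threshold of 0.05. It was tested on simulated data. edgeR 4.0.16 and DESeq2 1.42.0 on recovered reads were alternatives, beside other pseudocounts, filters, scalings, weights, a replicate block and each library left out. Fold changes on this scale understate the change of low genes. Recovered totals of 31789395 to 46621080 reads set the counting precision. All 8 libraries were kept as replicates, since pairs within a group gave a chi-square of at least 8.99 per gene, beyond sampling noise. There are 2 unnamed lines, which were left out of all tests. Gene positions, lengths and 3′ regions came from GENCODE M21, whose build is that of the files.

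The 45 genes and all lists were drawn up by gene function, with earlier results of these data known. Named with every library were, per role, the member with the highest mean and the 2 with the smallest p. Of the other mitosis and S phase lists, the 2 smallest p, the highest mean and any gene past the threshold were named. The quiescence genes named by the same measure, and others so marked, were chosen after their values were seen.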

Additional observations from a re-analysis of the deposited data

Results flagged for a closer look

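For each of the 45 genes and the other genes named, the highest or lowest library of each group of 4 was compared with its nearest neighbour, as a share of the group's range, and shares above Dixon's 95% critical value are listed. Chance gives about 1 in 20 groups, the 122 groups examined share the same 8 libraries, and 11 stood out.

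Control replicate 1 lay above the other controls for 3 members, Top2a at 3258 normalized counts against 2156 in the next control, Kif11 at 908 against 648, and Kif2c at 389 against 317. The same library lay above the other controls for Mcm3 (3137 against 2713), Pcna (10682 against 8609) and Rbl1 (1409.6 against 1194), which are not members. Knockout replicate 3 lay above the other knockouts for Bub1b (1189 against 875), Ube2c (492 against 405) and Kif20a (724 against 599). Knockout replicate 1 lay below the other knockouts for Ttk, at 104 against 156. Control replicate 4 lay above the other controls for Ncaph2, at 4134 against 3894.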

How the results depend on the processing

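Over the 20 alternatives, none of the 45 genes was called in any, and their median log2 difference stayed between -0.10 (quantile normalization, and without knockout replicate 3) and 0.06 (without control replicate 1), within the SD of 0.19 between libraries. The number of intervals within 1.5-fold was 36 to 44 over the 18 of them that give intervals. The count over all genes was 292 without the trend, 931 with array weights, 1557 with DESeq2, 7 with a replicate block, and 163 to 502 when a library was left out. Same-numbered samples did not deviate together (correlations of -0.293 to -0.036), so the values give no sign that replicate numbers pair the samples. Such correlations cannot exclude a pairing by design. With the replicate block, other mitosis genes called numbered 0 and S phase genes 0, with adjusted p of 0.0741 for Zwint and 0.168 for Cenpt. S phase genes called were 0 after scaling to the same total and without the trend, and 0 to 1 when a library was left out.

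The sign of small log2 differences turned. With array weights it was 0.021 for Kif11, 0.047 for Ube2c, 0.067 for Racgap1, 0.0197 for Knl1, 0.0011 for Zw10 and 0.052 for Kntc1. With the same total per library it was 0.038 for Ube2c, 0.031 for Racgap1, 0.0352 for Zw10 and 0.0351 for Cenpw, and with quantile normalization -0.0255 for Zwilch. Leaving out a library gave -0.0003 to 0.28 for Ccnb1, -0.13 to 0.029 for Cdc20, -0.0646 to 0.036 for Cenpw, -0.21 to 0.011 for Kif11, -0.18 to 0.094 for Knl1, -0.19 to 0.0605 for Kntc1, -0.105 to 0.058 for Racgap1, -0.20 to 0.026 for Tpx2, -0.0963 to 0.0598 for Ube2c, -0.0605 to 0.014 for Zw10 and -0.046 to 0.15 for Zwilch. Over all 45 genes and 20 alternatives, 95 of 900 values turned, in 30 genes, and 0 were called; array weights gave 16 below 0 and 29 above. The cause was not tested. Depth limits Cdc25c most, at 47.3 to 74.5 normalized counts.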
